A study of Mus musculus with 6 samples.

Results

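Gene expression under the BET inhibitor I-BET151 was compared with that under its solvent in cultured mouse pancreatic buds. Dorsal pancreatic buds were taken from embryos at stage E11.5 and cultured for 24 h, and each sample was a pool of 10 buds hybridised to 1 array. The comparison set 2 pools cultured with 500 nM I-BET151 against 2 control pools cultured with 0.1% DMSO. In addition, 2 pools cultured with 100 nM JQ1, another BET inhibitor, entered the fit to estimate the spread, so that 4 of the 6 arrays carried the contrast. The labels name no strain, and they do not state if replicate pools were independent in litter or day of culture. The p-values therefore reflect variation among these 6 pools, which may be technical in part. The members were chosen by an intensity floor alone: of 24010 named genes, the 12420 with a geometric mean intensity of at least 50 over all 6 arrays were tested, and the 11590 below it were not. The floor used no group label.

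BET proteins are chromatin readers whose paired bromodomains bind acetylated lysines on histone tails. BET proteins recruit the kinase complex P-TEFb, which releases paused RNA polymerase II into elongation. I-BET151 occupies the acetyl-lysine pocket, so that BET proteins leave chromatin, and genes that depend on dense BET binding at enhancers are known to be most affected. The dorsal bud at this stage is a small epithelial outgrowth of multipotent progenitors and first endocrine cells, wrapped in mesenchyme and crossed by vessels, blood cells and neural crest derivatives. All of these cells contribute to the RNA of a pool, and fewer cells of a type cannot be told apart from less RNA per cell.

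The tissue label was checked against marker genes. Epithelial bud markers were measured in the control pools, with Sox9 at 1531 and 1475, Cpa1 at 2925 and 3183 and Pdx1 at 252 and 228. Ptf1a was dim, at 60 and 53. All 7 gut and stomach genes looked at, among them Cdx2 at 34 to 45 and Fabp2 at 12 to 15 over the 6 arrays, lay below the floor. Across the genes tested, log2 intensities of replicate arrays correlated at 0.9911 to 0.9929 and control with I-BET151 arrays at 0.9751 to 0.9801, over arrays that were normalised together. The 2 pools of each group set the limit on precision here, since an exact permutation test of 2 against 2 cannot go below a two-sided p of 0.333 for a single gene.

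I-BET151 changed 1388 of the 12420 genes (11.2%) at an adjusted p under 0.05 in limma's moderated test with Benjamini-Hochberg adjustment. Of these, 564 rose (4.54%) and 824 fell (6.63%). Most changes were modest. The rises had a median fold of 1.35, and 457 of them were under 1.5-fold, 93 between 1.5-fold and 2-fold, and 14 at 2-fold or more. The falls had a median fold of 1.46, with 472 under 1.5-fold, 264 between 1.5-fold and 2-fold, and 88 at 2-fold or more. The smallest called change was 1.21-fold in either direction. Over all genes tested the median log2 change was 0.006, and the middle of the distribution was narrow, with the 5th percentile at -0.47 and the 95th at 0.37. Arrays of the compared groups did not overlap for 7339 genes (59.1%), 3745 higher (30.2%) and 3594 lower (28.9%) with I-BET151, so a gap between the pools was common among genes that were not called.

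Fewer genes were called with any 1 array left out, and fewer arrays leave fewer degrees of freedom. Leaving out a control or I-BET151 array also leaves 1 pool in its group, so a lost call can reflect lower power alone. Without control pool 1 the same fit called 110 rises and 268 falls, and without control pool 2 it called 87 and 225. Without I-BET151 pool 1 it called 76 rises and 221 falls, and without I-BET151 pool 2 it called 197 and 497. Leaving out either JQ1 array gave 362 rises and 634 falls. Called in the full fit and without each of the 4 control and I-BET151 arrays in turn were 204 genes, 41 rises and 163 falls. Such genes are described as retained below, and where a count is followed by the words array left out, the values are those without control 1, control 2, I-BET151 1 and I-BET151 2, in that order. No called gene changed sign in any of these fits, but this outcome was fixed in advance. For all 564 called rises and 824 called falls the control and I-BET151 arrays did not overlap, so leaving out 1 array could not turn the sign.

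By the geometric mean over all 6 arrays, falls lay mostly among dim and middling genes. A fall itself lowers this mean and a rise lifts it, so the bands are in part set by the calls. Between an intensity of 50 and 100, 9.87% of genes fell and 2.73% rose. The shares were 9.47% and 5.76% between 100 and 200, and 5.94% and 6.14% between 200 and 400. Among the 462 genes at 1600 and above, 1.08% fell and 1.52% rose. A group mean was below the floor for 57 called genes, in the I-BET151 pools for 38 falls and in the control pools for 19 rises.

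**Figure D1:**
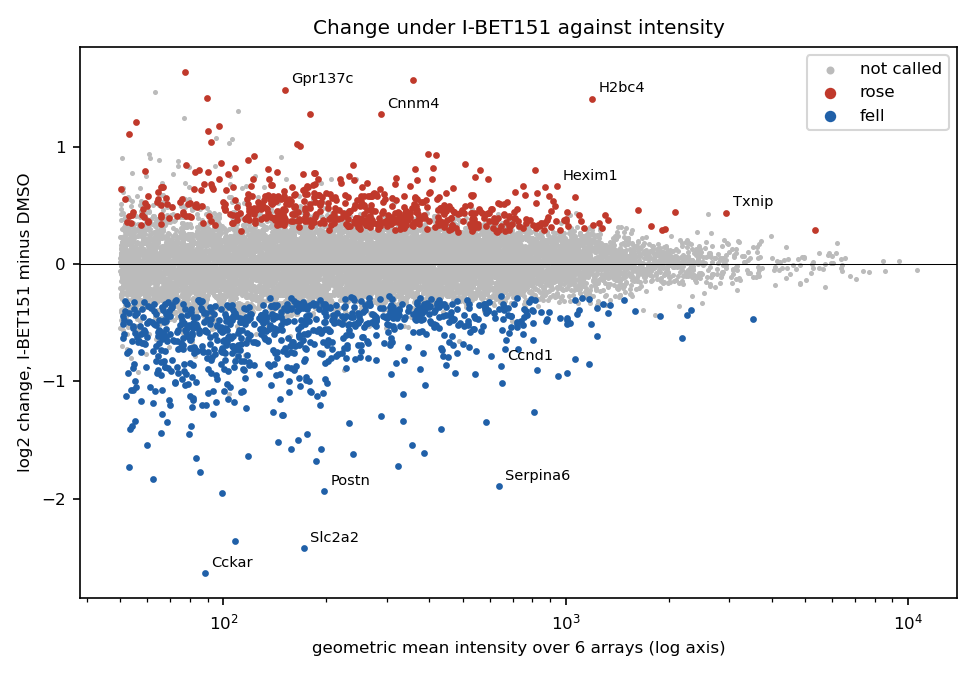
Log2 change under I-BET151 (vertical axis, I-BET151 minus DMSO) against the geometric mean intensity over 6 arrays (log axis) for the 12420 genes tested, 1 point a gene, with 564 rises in red, 824 falls in blue and uncalled genes in grey. The falls reach further from 0 than the rises and thin out at high intensity.

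The 12 largest falls ranged from 6.22-fold to 3.15-fold. Cckar, the receptor of cholecystokinin on acinar cells, was at 321 and 398 in the control pools and at 50 and 66 in the I-BET151 pools, and fell 6.22-fold (log2 -2.64 ± 0.17, SE; adjusted p = 0.00128). Slc2a2, the glucose transporter GLUT2 of beta cells, liver and the early pancreatic epithelium, was at 544 and 655 against 99 and 125 and fell 5.37-fold (adjusted p = 0.00124). In these genes every I-BET151 pool lay far below every control pool. Wfdc15b, which encodes a small secreted protein with a whey acidic protein domain, went from 333 and 329 to 57 and 73, a 5.13-fold fall. Adgrg6, an adhesion G protein-coupled receptor needed for myelination by Schwann cells, went from 277 and 259 to 65 and 74, a 3.86-fold fall. The matrix protein gene Postn fell 3.83-fold, from 489 and 550 to 124 and 148. Slc28a3, a nucleoside transporter, fell 3.56-fold, from 169 and 154 to 42 and 49. All 6 of these were retained.

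The other 6 of the largest falls came from several cell types. Serpina6, which encodes the corticosteroid-binding globulin of plasma, was at 1654 and 1927 in the control pools and at 351 and 657 with I-BET151 (3.72-fold, adjusted p = 0.0211). Its I-BET151 pools differed from each other more than those of the genes above, and it was not retained. Fabp7, a fatty acid-binding protein of glia, fell 3.30-fold from 795 and 829 to 191 and 317, and Hsd3b6, a steroid dehydrogenase, 3.42-fold from 153 and 261 to 56 and 61. Neither of them was retained. Cpa3, a carboxypeptidase of mast cells, fell 3.33-fold from 115 and 127 to 30 and 44. Penk, the precursor of enkephalin peptides, fell 3.21-fold from 446 and 382 to 114 and 145. Angpt1, the ligand of the endothelial receptor Tek, fell 3.15-fold from 208 and 163 to 59 and 58. Cpa3, Penk and Angpt1 were retained. The I-BET151 means of Cpa3 and Slc28a3 lay below the floor, so these genes passed it through their other pools.

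The 12 largest rises were smaller and more often uneven between pools. H2bc4, a histone H2B gene, was at 569 and 593 in the control pools and at 1555 and 1537 with I-BET151, a 2.66-fold rise (log2 1.41 ± 0.08, SE; adjusted p = 0.00128). A second H2B gene, H2bc21, rose 2.01-fold from 127 and 79 to 205 and 197. H2B genes are near-identical in sequence, so which copies gave the signal is uncertain. Gpr137c rose 2.80-fold, from 72 and 72 to 197 and 207. Tc2n, which encodes a protein with tandem C2 domains, rose 2.67-fold from 44 and 43 to 106 and 127. Cnnm4, a magnesium transporter gene, rose 2.42-fold from 160 and 137 to 361 and 356. The hyaluronan-binding protein gene Habp4 rose 1.92-fold, from 247 and 249 to 467 and 483. H2bc4, Gpr137c, Tc2n, Cnnm4 and Habp4 were retained, with control and I-BET151 pools far apart and little difference within each pair.

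None of the other 7 was retained, and most differed between the pools of a group. Nepn, a secreted leucine-rich repeat protein gene, was at 223 and 121 in the control pools and at 564 and 424 with I-BET151, a 2.98-fold rise. The heat shock genes Hspa1a (79 and 87 against 262 and 154) and Hspa1b (44 and 54 against 130 and 94) rose 2.42-fold and 2.27-fold. These copies are near-identical and cannot be separated with certainty. Pcdhga5, a clustered protocadherin, was at 71 and 40 against 114 and 120. Acss2, which makes acetyl-CoA from acetate, rose 2.03-fold from 97 and 99 to 189 and 209. The noncoding RNA Platr25 rose 2.31-fold, from 36 and 34 to 85 and 77. The control means of Tc2n, Platr25 and Hspa1b lay below the floor, and these genes passed it only through their treated pools, where they are high, so their calls follow in part from the choice of genes tested.

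**Figure D2:**
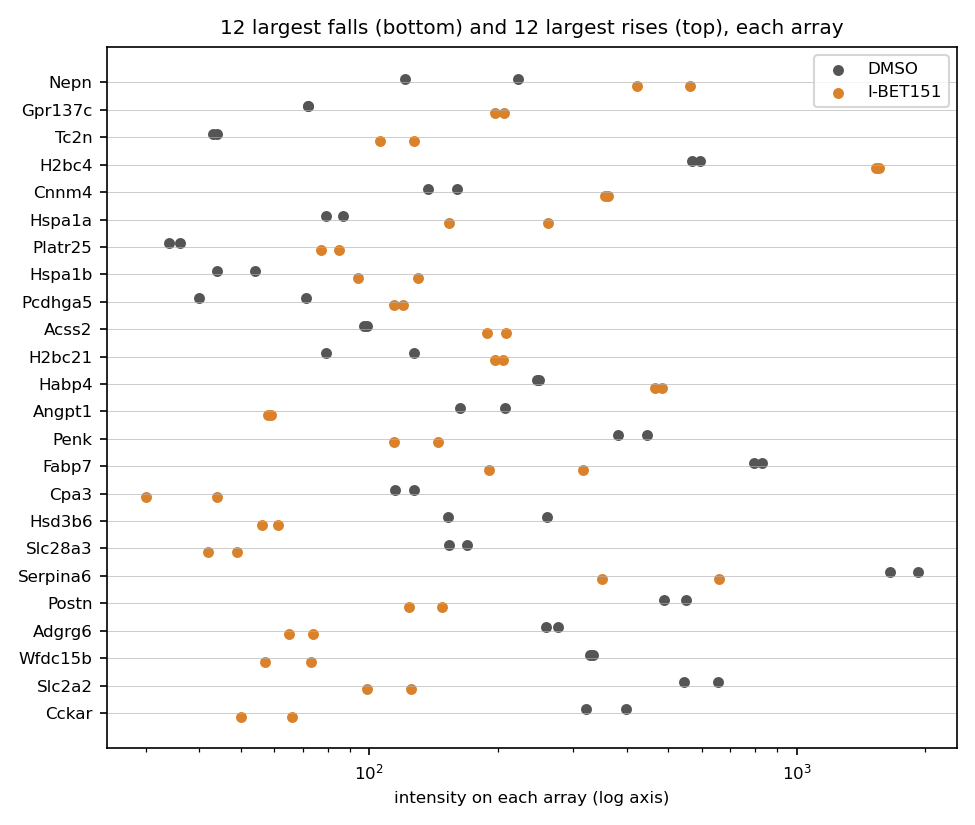
Intensity on each control (grey) and I-BET151 (orange) array, on a log axis, for the 12 largest falls (lower rows) and the 12 largest rises (upper rows), 1 point an array. Groups are separate in every row, as they are for every called gene and for 59.1% of all genes tested. Their means differ 6.22-fold for Cckar and 1.92-fold for Habp4.

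The promoters of called genes differed in their content of the dinucleotide CG, the site of DNA methylation that is dense in the promoters of broadly expressed genes and sparse in those of many tissue-restricted ones. RefSeq promoters of the build GRCm38.p6, from 250 bases before to 50 bases after the start, were at hand for 9758 of the 12420 genes. The median number of CG was 22 over all of them, 26 among 457 genes that rose, 15 among 620 that fell and 6 among 69 that fell 2-fold or more. Retained falls and rises among the largest changes are shown here for this contrast, 5′ to 3′ on the strand of the gene, with each CG in capitals. The promoter of Slc2a2 (chr3:28697653-28697952, plus strand) has 2 CG and that of Wfdc15b (chr2:164221614-164221913, minus strand) has 7. Gpr137c (chr14:45219467-45219766, plus strand) has 22 and Cnnm4 (chr1:36471347-36471646, plus strand) has 42.
Slc2a2: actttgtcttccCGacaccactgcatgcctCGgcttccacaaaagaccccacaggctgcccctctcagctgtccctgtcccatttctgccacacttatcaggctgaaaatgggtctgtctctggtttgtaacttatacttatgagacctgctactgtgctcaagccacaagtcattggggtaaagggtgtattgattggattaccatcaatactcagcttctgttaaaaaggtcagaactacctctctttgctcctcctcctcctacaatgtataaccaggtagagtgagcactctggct
Wfdc15b: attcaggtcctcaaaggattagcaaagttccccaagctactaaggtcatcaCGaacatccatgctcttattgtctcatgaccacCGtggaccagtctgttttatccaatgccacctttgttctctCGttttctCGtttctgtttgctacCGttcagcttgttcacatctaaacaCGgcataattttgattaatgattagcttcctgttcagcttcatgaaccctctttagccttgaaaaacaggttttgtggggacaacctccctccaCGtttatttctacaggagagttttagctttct
Gpr137c: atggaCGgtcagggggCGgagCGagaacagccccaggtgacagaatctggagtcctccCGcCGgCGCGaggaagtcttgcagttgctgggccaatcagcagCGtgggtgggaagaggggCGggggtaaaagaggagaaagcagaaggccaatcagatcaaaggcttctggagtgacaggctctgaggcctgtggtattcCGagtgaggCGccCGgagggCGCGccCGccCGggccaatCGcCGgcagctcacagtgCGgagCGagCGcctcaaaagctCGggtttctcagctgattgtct
Cnnm4: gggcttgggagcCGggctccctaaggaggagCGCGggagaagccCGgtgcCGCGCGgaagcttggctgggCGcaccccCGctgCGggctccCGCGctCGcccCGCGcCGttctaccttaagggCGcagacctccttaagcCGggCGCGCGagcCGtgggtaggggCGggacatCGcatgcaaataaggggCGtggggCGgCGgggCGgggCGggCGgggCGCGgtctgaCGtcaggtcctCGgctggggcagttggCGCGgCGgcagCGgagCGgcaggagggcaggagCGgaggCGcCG

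Split by this count, in steps chosen after seeing the data, 18.2% of the 473 genes with 0 to 4 CG fell and 2.96% rose. With 5 to 9 CG, 16.8% of 786 genes fell and 2.16% rose. Among the 2656 genes with 30 CG or more, 2.82% fell and 6.44% rose. Genes with few CG were also dimmer, with a median intensity of 96.2 at 0 to 4 CG against 345 at 30 or more. Within bands of intensity the order of the falls was the same: among genes between 200 and 400, 17.0% of 176 with under 10 CG fell against 3.68% of 1521 with 20 or more. Between 50 and 100 these shares were 17.2% of 540 and 5.58% of 788. The letters TATAAA, searched on both strands, stood in 8.43% of all promoters, in 12.6% of those of genes that fell and in 20.3% of those that fell 2-fold or more. These counts describe the sequences, and no test was made of them.

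**Figure D3:**
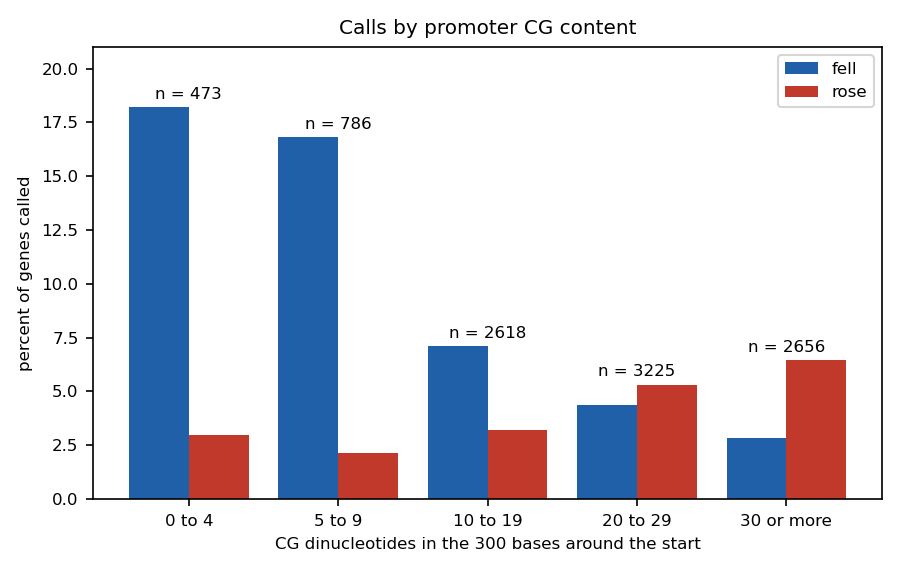
Percent of genes that fell (blue) and rose (red) by the number of CG dinucleotides in the 300 bases around the start, for 9758 genes with a RefSeq promoter, with the number of genes above each pair of bars. The share that fell goes from 18.2% at 0 to 4 CG to 2.82% at 30 or more, and the share that rose from 2.96% to 6.44%.

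The functions of the changed genes were described with 53 gene lists, each by how many tested members were called beside the 4.54% of rises and 6.63% of falls over all genes. Shares of falls were highest in acinar enzymes, endothelium, liver-type secreted proteins, neural crest and glia, erythroid cells, and collagens. The lists were written with earlier results of these data known, so this order may follow in part from that choice. Some were small, with 8 acinar, 15 neural crest and 18 erythroid genes tested, and some genes stood in several lists. Lists of the general cell machinery moved by small amounts in which few members were called.

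**Figure D4:**
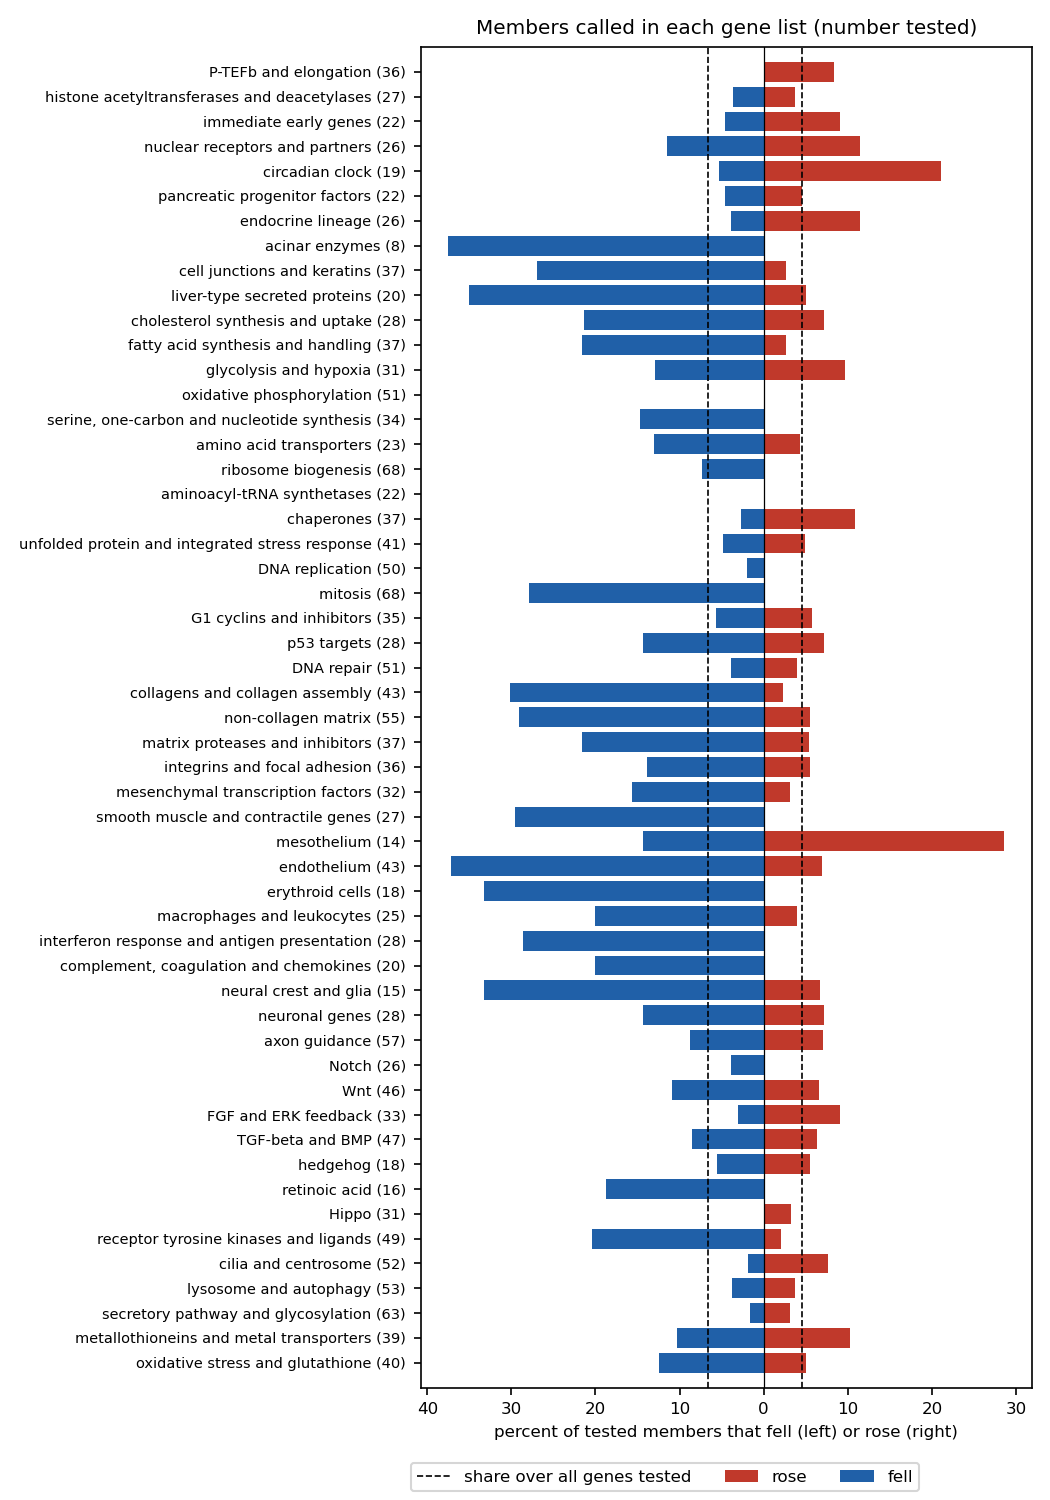
Percent of tested members that fell (blue, left) and rose (red, right) with I-BET151 in each of 53 gene lists, with the number tested after each name. The dashed lines mark the shares over all 12420 genes, 6.63% for falls and 4.54% for rises. Endothelium (37.2% fell), liver-type secreted proteins (35.0%) and collagens (30.2%) reach well past the line, and oxidative phosphorylation shows no call.

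The transcription elongation list, made of P-TEFb, its inhibitors and partners, had 3 rises and no falls among 36 tested members, with a median log2 change of 0.06. Hexim1, which holds P-TEFb in an inactive complex and is a known pharmacodynamic marker of BET inhibition, was at 625 and 656 in the control pools and at 982 and 1053 with I-BET151 (log2 0.67 ± 0.08, SE; adjusted p = 0.00573) and was retained. Ctr9, a subunit of the PAF1 complex, rose from 711 and 744 to 987 and 938, and the elongation factor gene Ell2 from 157 and 150 to 193 and 201. Neither of the latter was retained, and 1 rise was called without each array in turn. Among chromatin enzymes, the demethylase gene Kdm1b rose from 207 and 200 to 305 and 310 and was retained. The histone acetyltransferases and deacetylases had 1 rise and 1 fall of 27, Sirt7 (134 and 121 against 166 and 161) and Sirt6 (652 and 587 against 487 and 468), and no call with an array left out.

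Factors that define the pancreatic epithelium were little changed as lists. Of 22 progenitor factors, 1 rose and 1 fell, with a median log2 change of 0.06 (array left out: 1, 0, 0 and 2 rises, 1 fall in each, and medians of 0.08, 0.03, 0.01 and 0.05). Hnf4a, a nuclear receptor that drives liver and gut epithelial genes, was at 276 and 286 against 141 and 132 with I-BET151 and fell by 1.04 on the log2 scale (adjusted p = 0.00165, retained). The homeobox gene Mnx1 rose from 67 and 61 to 103 and 95. Among 26 endocrine lineage genes, 3 rose and 1 fell, with a median of 0.13 (array left out: 0, 2, 0 and 2 rises). Neurod1, a transcription factor of endocrine differentiation, rose from 147 and 164 to 271 and 231, Sox11 from 499 and 550 to 751 and 741, and Rfx6 from 118 and 111 to 143 and 160. The member that fell was Cdkn1a, the p21 inhibitor of cyclin-dependent kinases. The summed intensity of all progenitor markers was 10280 and 9988 in control and 10695 and 9701 in I-BET151 pools, and that of endocrine markers 16060 and 16370 against 16671 and 16333. The groups overlapped on both sums.

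Several genes of the differentiated epithelium fell. Of 33 acinar enzyme genes listed, 28 had a named row and 8 of these reached the floor, of which 3 fell, with a median log2 change of -0.35 (array left out: 1, 1, 1 and 2 falls, with medians of -0.41, -0.28, -0.22 and -0.44). The pancreatic lipase-related gene Pnliprp1 fell from 528 and 648 to 165 and 219 (log2 -1.62 ± 0.15, SE; adjusted p = 0.00367, retained), and Clps, the cofactor of pancreatic lipase, from 456 and 494 to 350 and 369. Cel, the bile salt-activated lipase, fell from 195 and 230 to 136 and 166. The brighter digestive enzyme gene Cpa1, named after its values were seen, was not called. It was at 2925 and 3183 against 3046 and 3010 (log2 -0.01). Of 37 junction and keratin genes 10 fell (27.0%) and 1 rose, with a median of -0.26 (array left out: 4, 2, 3 and 6 falls, and 1, 0, 0 and 0 rises). The tight junction gene Cldn3 fell from 746 and 736 to 356 and 427, Anxa4 from 498 and 490 to 262 and 300, and Elf3, an epithelial Ets factor, from 83 and 94 to 55 and 54. Ocln, another tight junction gene, fell from 317 and 330 to 226 and 233. Cldn3 and Anxa4 were retained. Summed acinar intensities were 6292 and 6996 against 5564 and 5831, and summed junction and keratin intensities 15453 and 15825 against 13797 and 14110. Their pan-epithelial companions Cdh1 (1433 and 1463 against 1378 and 1393) and Epcam (735 and 733 against 644 and 637), named after their values were seen, were not called.

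Liver-type secreted proteins, products of hepatocytes that are also made at low level in early endoderm, had the lowest median of the epithelial lists at -0.51. The list also holds liver-type genes whose products are not secreted, among them Tm4sf4 and A1cf. Of 20 tested, 7 fell (35.0%) while 1 rose (array left out: 4, 3, 3 and 6 falls, and no rise). Tm4sf4 fell from 167 and 181 to 57 and 71, A1cf, a subunit of the apolipoprotein B mRNA editing complex, from 128 and 166 to 44 and 57, and the coagulation factor gene F10 from 84 and 91 to 55 and 56. These 3 were retained. Ambp, the precursor of a plasma protease inhibitor, fell from 1642 and 1673 to 802 and 948. The I-BET151 pools were uneven in this list, and the median log2 change was -0.26 without I-BET151 pool 1 and -0.89 without I-BET151 pool 2. Albumin, Alb, was at 179 and 58 in the control pools and at 35 and 421 with I-BET151, and Afp at 388 and 279 against 81 and 383. Neither was called, and both were named after their values were seen. Summed over all 37 liver-type genes measured, the intensity was 12544 and 12796 in control and 7741 and 10298 in I-BET151 pools, with 1 member under 10 on an array. The part of liver cells in these falls was not tested.

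Many genes of the extracellular matrix fell. Of 43 collagens and collagen-processing genes, 13 fell (30.2%) and 1 rose, with a median log2 change of -0.12 (array left out: 8, 7, 10 and 8 falls), and 7 were retained. Col8a1, a short-chain collagen of vessels, was at 213 and 222 against 98 and 88 and fell by 1.23 on the log2 scale (SE 0.08, adjusted p = 0.00128). The fibril-associated collagen gene Col14a1 fell from 267 and 251 to 141 and 142. Collagen-modifying enzymes moved both ways. Lox, which cross-links collagen and elastin, fell from 106 and 101 to 34 and 45, a mean below the floor, and the prolyl hydroxylase gene P3h2 from 301 and 274 to 166 and 171. Another prolyl hydroxylase gene, P4ha1, was the member that rose (log2 0.45 ± 0.09, SE; adjusted p = 0.0273), and no rise was called with an array left out. The fibrillar Col3a1, at 803 and 767 against 830 and 765, and Col1a1, at 1480 and 1531 against 1245 and 1119 (adjusted p = 0.0551), were not called. Both were named after their values were seen.

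Among 55 other matrix genes 16 fell (29.1%) and 3 rose, and the median was -0.03, so the list held a tail of falls rather than a general shift (array left out: 9, 8, 8 and 10 falls, and 0, 3, 1 and 1 rises, with medians of -0.03, -0.04, -0.06 and -0.07). Beside Postn, the matricellular gene Tnc fell from 352 and 346 to 116 and 118, and the small leucine-rich proteoglycans Bgn from 1692 and 1514 to 822 and 826 and Dcn from 315 and 302 to 117 and 136. All 4 were retained. Fn1, which encodes fibronectin, was not called, at 1273 and 1322 against 1192 and 1164, and was named after its values were seen. Matrix proteases and their inhibitors had 8 falls and 2 rises of 37 (array left out: 6, 3, 4 and 6 falls, and 0, 0, 0 and 1 rises). Serpinf1, the anti-angiogenic pigment epithelium-derived factor, fell from 670 and 673 to 341 and 318, the gelatinase gene Mmp9 from 122 and 123 to 68 and 62, and Timp1 from 159 and 147 to 85 and 96. Each of these was retained.

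Contractile genes of smooth muscle had 8 falls of 27 (29.6%) and no rise, with a median of -0.14, and none was retained (array left out: 1, 0, 3 and 2 falls). Acta2, smooth muscle actin, was at 831 and 767 against 500 and 430, Tagln2 at 925 and 985 against 675 and 640, and Tpm2 at 103 and 102 against 77 and 68. The 32 mesenchymal transcription factors had 5 falls and 1 rise (array left out: 3, 1, 0 and 5 falls, and no rise), and their summed intensity was 17420 and 16971 in control and 17151 and 17626 in I-BET151 pools. The homeobox genes Prrx1 (139 and 175 against 82 and 91) and Prrx2 (114 and 101 against 62 and 69) fell. Mesothelial genes moved both ways, with 4 rises and 2 falls of 14. Podxl rose from 767 and 697 to 1068 and 1058 and Wt1 from 919 and 911 to 1227 and 1216, and the uroplakin gene Upk3b fell from 701 and 641 to 395 and 411. No mesothelial call was retained (array left out: 2, 0, 0 and 2 rises, and 0, 1, 0 and 1 falls).

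Most endothelial genes had a change below 0. Of 43 tested, 39 had a log2 change below 0, 16 fell (37.2%) and 3 rose, with a median of -0.34 (array left out: 10, 6, 5 and 14 falls, and 0, 1, 0 and 1 rises). Aplnr, the apelin receptor of sprouting veins, was at 357 and 353 in the control pools and 117 and 134 with I-BET151 and fell 2.84-fold (adjusted p = 0.00128). Tek, the receptor of angiopoietins, fell from 148 and 168 to 59 and 62, Eng, a TGF-beta co-receptor, from 599 and 640 to 378 and 377, and Mmrn1, a gene of lymphatic endothelium, from 151 and 178 to 78 and 83. All 4 were retained. The junction genes that define the lineage, named after their values were seen, also fell: Pecam1 went from 724 and 707 to 557 and 574 and Cdh5 from 1640 and 1611 to 1237 and 1317. The 3 members that rose were Stab1, a scavenger receptor gene, from 312 and 361 to 567 and 489, Esm1 from 118 and 120 to 149 and 161, and the transcription factor gene Sox7 from 349 and 323 to 421 and 412. Summed over all 47 endothelial genes, the intensity was 16140 and 16805 in control and 12603 and 13515 in I-BET151 pools, a mean of 79.3% of control, with no member under 10 on any array. The part of cell number in these falls was not tested.

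Blood lineages showed scattered falls. Of 18 erythroid genes 6 fell and none rose, with a median of -0.30 (array left out: 3, 1, 1 and 1 falls, with medians of -0.40, -0.18, -0.27 and -0.33), among them the Rh-associated glycoprotein gene Rhag from 82 and 82 to 42 and 47 and the transferrin receptor gene Tfrc from 614 and 568 to 431 and 422. Only Rhag was retained, and its I-BET151 mean lay below the floor, which it passed through its control pools. Of 25 macrophage and leukocyte genes 5 fell and 1 rose (array left out: 4, 2, 2 and 4 falls, and no rise). The Fc receptor gene Fcgr1 fell from 277 and 286 to 124 and 141 and the platelet factor gene Pf4 from 101 and 112 to 60 and 52, and both were retained. The macrophage growth factor receptor gene Csf1r, whose adjusted p was 0.0489, rose from 540 and 592 to 824 and 701. Summed macrophage marker intensities overlapped between groups, at 10658 and 11562 against 10743 and 10133. The erythroid sums were lower with I-BET151, at 11189 and 12173 against 10592 and 11018. Their part in the calls was not tested.

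Interferon-stimulated and antigen presentation genes, which sense and restrict viruses, had 8 falls of 28 (28.6%) and no rise, with a median of -0.19 (array left out: 4, 2, 2 and 6 falls, with medians of -0.18, -0.10, -0.16 and -0.18). Ifitm3, an antiviral membrane protein gene, was at 672 and 621 against 243 and 270 (log2 -1.33 ± 0.16, SE; adjusted p = 0.00607), and Bst2, which tethers virions, at 204 and 185 against 94 and 109. Both were retained. Rsad2, which encodes viperin, fell from 214 and 225 to 65 and 77 and the RNA sensor gene Ifih1 from 100 and 105 to 61 and 63, and neither was retained. Complement, coagulation and chemokine genes had 4 falls and no rise of 20 (array left out: 3, 2, 2 and 4 falls). Cxcl13, a B cell chemokine, fell from 506 and 367 to 148 and 191 and was retained.

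Neural crest and glial genes had a median log2 change of -0.45, with 5 falls and 1 rise of 15 (array left out: 3, 2, 3 and 5 falls, and 1, 0, 0 and 0 rises, with medians of -0.50, -0.38, -0.27 and -0.41). Gfra2, a GDNF family receptor, fell from 148 and 156 to 77 and 77, and the endothelin receptor gene Ednrb from 641 and 665 to 387 and 422, both retained. The neurotrophin receptor gene Ngfr rose from 307 and 260 to 412 and 393. Summed over 24 genes, the intensity was 4928 and 5006 in control and 3594 and 3884 in I-BET151 pools, with no member under 10 on any array, and the part of fewer crest cells was not tested. Neuronal genes moved both ways, with 4 falls and 2 rises of 28 (array left out: 2, 3, 3 and 3 falls, and 1 rise in each). The tachykinin precursor gene Tac2 fell from 894 and 873 to 265 and 317, and Stmn2, a microtubule regulator of growing axons, from 282 and 302 to 160 and 165. Uchl1, a neuronal ubiquitin hydrolase, rose from 207 and 202 to 298 and 313. These 3 neuronal calls were retained.

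The mitosis list had small changes, nearly all below 0, most of which did not pass the test. Of 68 tested, 66 had a log2 change below 0, and 19 fell (27.9%, beside 6.63% over all genes) with none rising. The I-BET151 pools lay below both control pools for 59 of the 68, beside 28.9% over all genes. The median was -0.26 and the range among the leave-one-out fits -0.32 to -0.21, while the number of falls was 0, 2, 0 and 4 with an array left out, so no single mitotic gene was retained. Spc24, a kinetochore subunit, was at 599 and 589 against 418 and 419 (log2 -0.51 ± 0.07, SE; adjusted p = 0.00816). Nusap1, a spindle protein gene, went from 980 and 913 to 718 and 681, and the chromokinesin gene Kif22 from 370 and 362 to 280 and 272. Cdc20, the activator of the anaphase-promoting complex, fell from 951 and 872 to 604 and 666, and Plk1, a mitotic kinase, from 1651 and 1561 to 1186 and 1223. Mki67, at 1846 and 2002 against 1969 and 1756, and Top2a, at 1721 and 1594 against 1598 and 1495, were named after their values were seen and were not called.

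Many mitotic promoters share sequence letters that genes of the late cell cycle are known for, TTTGAA (the CHR element) and CCAAT. On either strand TTTGAA stood in 69.1% of 55 mitotic promoters and in 13.5% of all, and CCAAT in 70.9% and 43.2%. Among the 15 mitotic genes that fell and had an entry, 66.7% held TTTGAA, a share like that of the whole list. The promoters of Plk1 (chr7:122159185-122159484, plus strand) and Cdc20 (chr4:118437294-118437593, minus strand), chosen after their values were seen to show these letters together, are given 5′ to 3′ from the same RefSeq table, with TTTGAA and CCAAT on either strand in capitals. Each holds 1 TTTGAA and at least 1 CCAAT, and the match describes the letters only.
Plk1: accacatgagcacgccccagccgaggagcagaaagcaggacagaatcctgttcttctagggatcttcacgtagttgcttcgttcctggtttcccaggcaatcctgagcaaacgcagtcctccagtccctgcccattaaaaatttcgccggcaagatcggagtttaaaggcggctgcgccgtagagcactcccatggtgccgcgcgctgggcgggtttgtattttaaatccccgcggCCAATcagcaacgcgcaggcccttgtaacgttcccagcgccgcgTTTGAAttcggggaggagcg
Cdc20: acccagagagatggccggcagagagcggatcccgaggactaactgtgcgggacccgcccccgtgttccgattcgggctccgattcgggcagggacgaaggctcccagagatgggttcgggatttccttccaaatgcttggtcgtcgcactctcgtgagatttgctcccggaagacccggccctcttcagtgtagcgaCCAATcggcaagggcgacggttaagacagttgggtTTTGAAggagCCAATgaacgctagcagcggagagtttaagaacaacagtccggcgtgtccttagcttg

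DNA replication genes had a smaller median change. Of 50 tested, 44 were below 0 with a median of -0.16, and 1 fell, the flap endonuclease gene Fen1, from 296 and 303 to 239 and 232 (adjusted p = 0.030). With any 1 control or I-BET151 array left out, none was called. Regulators of G1 had 2 falls and 2 rises of 35 (array left out: 2 falls and no rise in each). These were 5.71% each way, and the DNA repair calls below 3.92% each way. Over all genes 6.63% fell and 4.54% rose, so both lists lay near those shares. Ccnd1, cyclin D1, was at 987 and 999 against 555 and 533 and fell by 0.87 on the log2 scale (SE 0.07, adjusted p = 0.00246), and Cdkn1a fell from 1115 and 1070 to 661 and 733, both retained. The retinoblastoma gene Rb1 rose from 352 and 384 to 496 and 511. Among p53 targets 4 fell and 2 rose of 28 (array left out: 2, 2, 3 and 3 falls, and no rise), with Ccng1 falling from 1329 and 1213 to 687 and 671 (retained). Fancd2, a gene of interstrand cross-link repair, fell from 266 and 258 to 186 and 183, and the mismatch repair gene Msh3 rose from 412 and 402 to 616 and 599, among 2 calls in each direction over 51 DNA repair genes (array left out: 0, 0, 0 and 1 falls, and 2, 0, 1 and 1 rises).

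**Figure D5:**
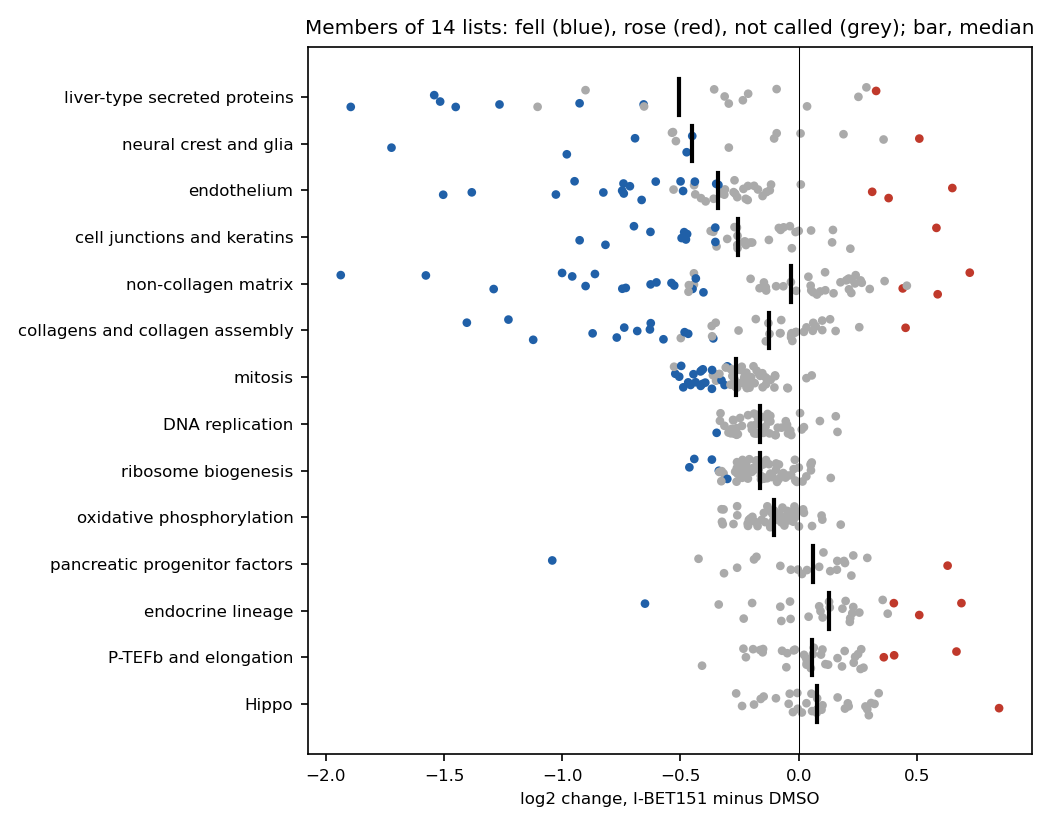
Log2 change (I-BET151 minus DMSO, horizontal axis) of each tested member of 14 gene lists, 1 point a gene, red for rises, blue for falls and grey for uncalled genes, with a black bar at the list's median. Liver-type, endothelial and matrix lists spread widely to the left, whereas mitosis (median -0.26), DNA replication (-0.16) and ribosome biogenesis (-0.17) lie close together just below 0.

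Lists of protein synthesis had medians below 0 and few or no calls. Ribosome biogenesis genes had 60 of 68 members below 0, a median of -0.17 and 5 falls (7.35%, beside 6.63% over all genes), which were 0, 0, 0 and 2 with an array left out. Dkc1, the pseudouridine synthase of the nucleolus, went from 783 and 756 to 534 and 584, and its partner Nhp2 from 361 and 364 to 261 and 273. All 22 aminoacyl-tRNA synthetases had a log2 change below 0, with a median of -0.15, and none was called at an adjusted p under 0.05. The brightest, Nars, was at 1757 and 1769 against 1456 and 1502 (adjusted p = 0.0725). The 51 oxidative phosphorylation genes had a median of -0.10 and no call (array left out: 0, 0, 0 and 2 falls, with medians of -0.08, -0.13, -0.06 and -0.16), with Cox6a1 at 5627 and 5636 against 5745 and 5528. Since the arrays were normalised to a common distribution, a shift shared by most genes would not be seen.

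Metabolic genes fell in several pathways. One-carbon and nucleotide synthesis had 5 falls and no rise of 34 (array left out: 2, 3, 2 and 3 falls). Mthfd1l, a mitochondrial folate enzyme, was at 232 and 222 against 115 and 120 and fell by 0.95 on the log2 scale (SE 0.07, adjusted p = 0.00228), and Shmt1, a serine hydroxymethyltransferase, went from 360 and 345 to 210 and 227, both retained. Cholesterol synthesis and uptake had 6 falls and 2 rises of 28 with a median of -0.27 (array left out: 1, 1, 1 and 3 falls, and no rise). Fdft1, squalene synthase, fell from 1304 and 1210 to 909 and 898, and Nr1h3, the sterol-sensing liver X receptor alpha, from 86 and 77 to 52 and 50. Mylip, which degrades the LDL receptor, rose from 355 and 355 to 494 and 510. Of these Nr1h3 was retained.

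Fatty acid genes had 8 falls and 1 rise of 37, the rise being Acss2 (array left out: 3, 3, 3 and 5 falls, and 0, 0, 1 and 1 rises). Mgll, monoacylglycerol lipase, fell from 124 and 121 to 81 and 84 and was retained, and Acsl5, an acyl-CoA synthetase, fell from 365 and 311 to 182 and 206. Glycolysis and hypoxia genes had 4 falls and 3 rises of 31 (array left out: 0, 1, 0 and 4 falls, and no rise). The glucose transporter gene Slc2a3 fell from 228 and 210 to 125 and 146 and Hk2, hexokinase, from 234 and 217 to 148 and 150. Gsta3, a glutathione transferase, fell from 134 and 137 to 50 and 57 (log2 -1.34 ± 0.09, SE; adjusted p = 0.00128, retained), the largest of 5 falls beside 2 rises among 40 oxidative stress genes (array left out: 3, 2, 1 and 3 falls, and no rise). Txnip, an inhibitor of thioredoxin and of glucose uptake, rose from 2345 and 2373 to 3117 and 3278 and was not retained.

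Signalling lists differed in their number of calls, and several lay near the 4.54% of rises and 6.63% of falls over all genes. Of receptor tyrosine kinase and ligand genes 2.04% rose and 20.4% fell, and of FGF and ERK feedback genes 9.09% and 3.03%. Receptor tyrosine kinases and their ligands had 10 falls and 1 rise of 49 (array left out: 3, 2, 4 and 3 falls, and 0, 0, 0 and 1 rises), led by Angpt1. Igfbp3, an insulin-like growth factor carrier, fell from 1596 and 1716 to 852 and 1044 and Vegfb from 731 and 697 to 502 and 472. FGF and ERK feedback genes had 3 rises and 1 fall of 33 (array left out: 3, 1, 2 and 3 rises, and 0, 0, 0 and 1 falls). Fgf18 rose from 138 and 165 to 259 and 250 and the feedback inhibitor gene Spry1 from 251 and 248 to 356 and 380, whereas Klb, the co-receptor of endocrine FGFs, fell from 158 and 177 to 96 and 114. The immediate early gene Egr1 rose from 182 and 170 to 262 and 243, and Myc fell from 662 and 681 to 429 and 468.

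Most of the other signalling lists lay near the 4.54% of rises and 6.63% of falls over all genes. Wnt genes had 6.52% rises and 10.9% falls, and TGF-beta and BMP genes 6.38% and 8.51%. Notch genes had 3.85% falls, and Hippo genes 3.23% rises. In retinoic acid signalling 3 of 16 genes fell (18.8%, array left out: 1, 2, 2 and 2). The binding protein gene Crabp2 went from 169 and 184 to 91 and 107 and was retained, and Stra6, a retinol receptor, went from 342 and 305 to 188 and 205. Wnt genes had 5 falls and 3 rises of 46 (array left out: 2, 2, 2 and 4 falls, and 0, 1, 1 and 1 rises), with the inhibitor gene Dkk2 falling from 131 and 128 to 75 and 81 (retained) and the ligand gene Wnt2b rising from 176 and 182 to 247 and 288. TGF-beta and BMP genes had 4 falls and 3 rises of 47 (array left out: 1, 2, 1 and 1 falls, and 0, 0, 0 and 1 rises). Fstl3, an activin antagonist, fell from 215 and 207 to 141 and 131 and was retained, and Id3, a BMP target, fell from 730 and 649 to 460 and 468. Mfng, which modifies Notch receptors with sugars, fell from 209 and 220 to 109 and 130 and was the only call of 26 Notch genes. Frmd6, an upstream regulator of the Hippo kinases, rose from 152 and 144 to 279 and 254 and was the only call of 31 Hippo genes. Mfng and Frmd6 were retained.

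Stress and clock genes added a few rises. Unfolded protein and integrated stress response genes stayed near the shares over all genes, with 4.88% rises and 4.88% falls beside 4.54% and 6.63%. Chaperones had 4 rises and 1 fall of 37 (array left out: 1, 1, 2 and 4 rises, and 0, 0, 0 and 1 falls), and Hspa2, a testis-enriched member of the heat shock family, rose from 89 and 84 to 130 and 132 and was retained. Unfolded protein and integrated stress response genes had 2 calls in each direction of 41 (array left out: 0, 0, 1 and 2 falls, and no rise), with Nupr1, a stress-induced chromatin protein gene, falling from 315 and 302 to 106 and 151. Among metal-handling genes, the metallothionein gene Mt2 rose from 502 and 508 to 960 and 811 (retained) and Cnnm3 from 157 and 163 to 254 and 224, beside 2 other rises and 4 falls of 39 (array left out: 2, 2, 2 and 4 rises, and 1 fall in each). Clock genes had 4 rises and 1 fall of 19, which were 0, 0, 1 and 0 rises and no fall with an array left out. Nfil3 rose from 118 and 123 to 154 and 175 and Nr1d2, a repressor of the clock, from 133 and 146 to 181 and 195. Ciliary genes had 4 rises and 1 fall of 52 (array left out: 1, 1, 1 and 3 rises, and 0, 0, 0 and 1 falls), and Ahi1, a gene of the ciliary transition zone, rose from 134 and 136 to 205 and 206 and was retained.

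The JQ1 pools shared the control pools with this comparison and were cultured at another dose, so their values are set beside those of I-BET151 without a comparison. Cckar was at 31 and 37 with 100 nM JQ1, Slc2a2 at 76 and 76, and Wfdc15b at 60 and 58. Among the rises, H2bc4 was at 1793 and 2000, Gpr137c at 262 and 214 and Cnnm4 at 443 and 470 with JQ1.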

How the data were processed

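The arrays are Affymetrix whole-transcript arrays hybridised with amplified cDNA. Per the submitters' processing notes, the authors normalised them with RMA (background correction, quantile normalisation and a summary over probes), with no version given. As deposited, each value is a linear intensity rounded to a whole number, from 5 to 11028, with array medians of 54 to 57. RMA removes shifts shared by most genes. Of 24972 rows, 24014 had 1 symbol in the platform annotation and 958 were not listed there, and 23921 Entrez IDs matched RefSeq (GRCm38.p6, used for names and promoters). The brightest row was kept for each symbol, which left 24010 genes. The sources used here do not say how probes were combined or values rounded.

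Log2(intensity) was fitted with limma 3.58.1 in R 4.3.3 (lmFit, eBayes) on 12420 genes with a geometric mean of at least 50, over all 6 arrays in 3 groups, with 3 residual and 3.85 prior degrees of freedom. P-values were adjusted by Benjamini-Hochberg, with calls under 0.05. On simulated data with 200 changed genes, the fit found 92.7% of changes of 1 and 36.5% of changes of 0.5 on the log2 scale, with 7 false calls per draw. The simulation drew independent noise from the same prior at all intensities. It also changed far fewer genes than the 1388 called here. Its rates, and its number of false calls, therefore do not carry over to the real data. Gene lists and the members described were chosen with earlier results of these data known, and are described by counts and medians with no test. Named genes are the 12 largest rises and falls, and up to 4 called members per list and 3 per family with the smallest p, or the brightest members where none was called. Predicted genes, small RNAs and receptors of smell were not named. Alternatives were the floor, scaling, prior, replicate block, arrays in the fit, rounding, and each array left out. Replicate numbers in the titles did not pair the samples (correlations of deviations -0.0905 to 0.0339). The number of arrays limits the precision.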

Additional observations from a re-analysis of the deposited data

How the results depend on the processing

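No fit reversed any of 194 called genes chosen by the naming rule, but most of the fits could not. The floor, the prior and the JQ1 arrays do not alter the log2 change of a gene. Control and I-BET151 arrays did not overlap for any called gene, so leaving out 1 array could not turn its sign. Genes named as not called, such as Alb and Afp, are not among the 194. Over their alternatives, 2244 values stayed on the same side of the threshold and 624 lost the call. The number of calls moved between fits. With no intensity floor, 63 rises and 209 falls were called (272 in all, 76.8% falls, against 59.4% in the reported fit), 217 of them shared with it. A floor of 25 gave 319 rises, and a floor of 100 gave 757 rises and 803 falls (51.5% falls). A trend in the prior gave 955 rises, and the 4 control and I-BET151 arrays alone gave 362. With an array left out, total calls ranged from 297 to 996, rises from 76 to 362 and falls from 221 to 634. With the replicate block, 357 rises and 636 falls were called (993 in all), 939 of them called without it, and the shared numbers were not taken as pairing. Over all lists and alternatives, counts of falls stayed within 1.5 times in 559 cases and moved further in 236, and counts of rises did so in 576 and 219. List medians held in 782 cases, moved in 12 and reversed in 1, glycolysis and hypoxia, at 0.02 with a floor of 100 (-0.11 as reported). Many of the held cases were fixed in advance. Lower floors kept the same list members, and the prior, the replicate block and the JQ1 arrays could not move a median. Median centring, a robust prior and dithered rounding left the total at 1434, 1399 and 1392. The cause of these shifts was not tested, except that fewer arrays leave fewer degrees of freedom. Signal over background limits the dim genes, since the files give no detection calls.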

Other observations

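Genes were also grouped into families by the letters of their symbols before the first digit. Counted were 80 families with at least 15 genes at or above the floor. These letters do not show common descent. Among 302 Zfp genes, most of which encode zinc finger proteins, 18 rose (5.96%, beside 4.54% over all genes) and 2 fell (0.662%, beside 6.63%), with a median log2 change of 0.10. The I-BET151 pools lay above both control pools for 131 of the 302 and below for 34, beside 30.2% and 28.9% over all genes. Zfp619 rose from 100 and 102 to 158 and 165 and was called without each array in turn, and Zfp442 rose from 132 and 123 to 196 and 189. With an array left out the rises numbered 1 to 3 and the falls 0, and the median 0.07 to 0.10, and centring the arrays gave the same counts.

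Shares over all genes were 4.54% for rises and 6.63% for falls. Among 47 Mrpl genes, which encode proteins of the mitochondrial large ribosomal subunit, 5 fell (10.6%) and none rose, with a median of -0.13. Mrpl35 went from 351 and 353 to 240 and 267 and Mrpl12 from 506 and 485 to 348 and 377, and with an array left out the number of falls was 0 to 2 and the median -0.18 to -0.07. Usp genes, most of them ubiquitin-specific proteases, had 4 rises (9.09%) and 1 fall (2.27%) of 44 with a median of 0.11. Usp25 rose from 769 and 771 to 953 and 965, and no Usp rise was called with an array left out. Among 19 Dusp genes, which encode dual-specificity phosphatases, 3 fell (15.8%) and none rose. Dusp9, a MAP kinase phosphatase, fell from 547 and 571 to 256 and 264 and was called without each array in turn. The 196 Slc transporter genes had 12 rises (6.12%) and 19 falls (9.69%), not far from the shares over all genes, with a median of 0.01. The serotonin transporter gene Slc6a4 fell from 121 and 132 to 59 and 71 and was called without each array in turn.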
